A study of Mus musculus with 16 samples.

Results

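The response of the mouse cortex to a morning exposure to LPS was read from 8 of the 16 samples of a bulk RNA-Seq series, the 5 titled as LPS-treated and the 3 titled as PBS-treated at ZT1, 1 hour after lights-on. The study used the series to ask how time of day (TOD) changes neuroinflammation after peripheral LPS, a bacterial cell wall component that provokes systemic inflammation without infection. All mice were wild-type C57Bl6 males of 2 months, and each received 2 intraperitoneal injections on consecutive days, of LPS at 2 mg/kg or of the PBS vehicle, at the same TOD. The cortex was taken on the third day, and total RNA was sequenced after ribosomal RNA depletion. The 2 ZT1 groups therefore shared genotype, sex, age and injection schedule and differed by the agent injected. The remaining 8 samples, 3 PBS-treated and 5 LPS-treated at ZT13, served only to ask where the ZT1 response differed from that in the evening. Levels are CPM, the reads on a gene for every 1000000 on all genes of the sample. A gene was called a differentially expressed gene (DEG) when limma on log2(CPM + 0.5) gave a Benjamini-Hochberg adjusted p under 0.05, and fold changes are LPS against PBS at ZT1 on that scale, which understates the change of low genes. The labels do not say that samples came from separate litters or cages, so p-values measure the spread between these samples.

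LPS is bound by LPS-binding protein and CD14 and recognised by TLR4, which signals through MyD88 to NF-kB and through TRIF to interferon regulatory factors. In the brain this signal is taken up mainly by endothelial cells, perivascular macrophages and microglia, the resident macrophages of the parenchyma, while astrocytes respond mostly to cytokines that these cells release. Peripheral LPS also raises circulating glucocorticoids, which act on most cells of the cortex.

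The labels' own treatment field contradicted the titles for 6 of the 8 ZT1 samples. *Gfap*, the intermediate filament of reactive astrocytes (ENSMUSG00000020932, chromosome 11 from 102887336 to 102900912 on the minus strand of GRCm38), read 123, 113 and 111 CPM under the 3 PBS titles against 945, 572, 671, 802 and 665 CPM under the 5 LPS titles, so the titles separated it without overlap. Depth was 20251840 to 29112758 reads on genes per sample. Neuronal, astrocytic and oligodendrocytic markers were abundant in every sample: *Snap25* at 1245 to 1327 CPM in PBS and 1205 to 1329.7 CPM in LPS mice, *Aqp4* at 60.2 to 65.6 and 74.9 to 109.8, and *Mbp* at 1207 to 1413 and 1168 to 1391. Choroid plexus was an uneven admixture. *Ttr*, the transthyretin gene that marks its epithelium, stood at 5.57, 834 and 10.8 CPM in the PBS mice and at 777, 4.57, 368, 11.2 and 501 CPM in the LPS mice, and the summed level of the 10 choroid plexus genes ran from 18.8 to 960.6 CPM in PBS and from 17.2 to 892 CPM in LPS mice. PBS mouse 2 and LPS mice 1, 3 and 5 were the high ones, and by limma 0 of the 10 genes was called, with 0 at an unadjusted p under 0.05.

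Of 18859 genes tested, 3061 were DEGs at ZT1, 16.2% of all, the share beside which each list count below is to be read. Higher in LPS were 2089 genes (11.1% of those tested) and lower were 972 (5.15%), and at an unadjusted p under 0.05 there were 5716. The rises were much larger than the falls. Among DEGs the log2 fold change was over 1 for 532 genes and under -1 for 16, and it was over 2 for 134 and under -2 for 2. The median was 0.54 among higher and -0.28 among lower DEGs, against 0.04 over all genes tested. The 2 groups did not overlap in 2930 of the 3061 DEGs, beside 24.3% of all genes tested. The balance of small changes rested on the scaling: with median-of-ratios factors the DEGs were 1668 higher and 1417 lower (8.84% and 7.51%), so the higher share moved from 68.2% to 54.1%. DEGs that were lower came from longer transcripts richer in GC, with medians of 4115 bases and 52.7% GC, against 3275 bases and 50.5% for the higher DEGs and 3074 bases and 49.1% for all genes. After removal of the dependence on GC content and transcript length from each library, 3164 genes were called, and 2775 of the 3061 were called again. Every PBS mouse carried weight in a group of 3: the DEGs numbered 1767, 1870 and 1770 without PBS mouse 1, 2 and 3, against 2453 to 3758 without any 1 LPS mouse, and 1390 genes were DEGs in all 8 of these fits.

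**Figure D1:**
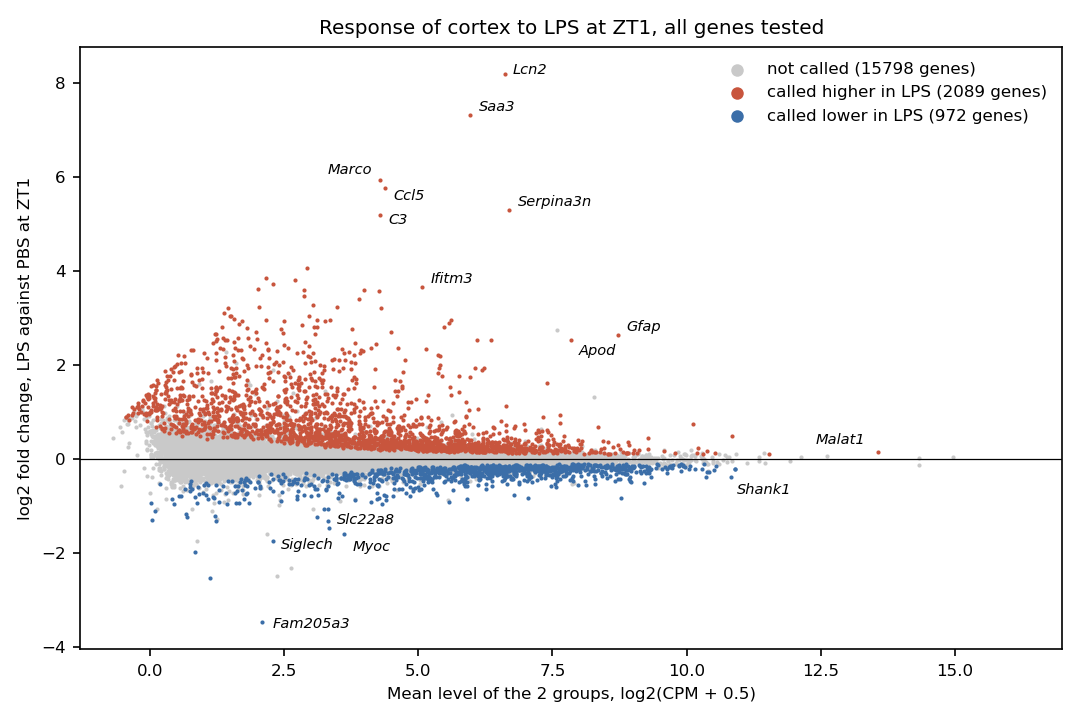
log2 fold change of LPS against PBS at ZT1 (vertical axis) against the mean level of the 2 groups as log2(CPM + 0.5) (horizontal axis), 1 point a gene. The 2089 higher DEGs reach a log2 fold change of 8.19, while 16 of the 972 lower DEGs lie below -1.

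The acute-phase genes, secreted early in inflammation, held the 2 largest rises among the named increases. All 7 that could be tested were higher, with a median log2 fold change of 2.80. *Lcn2* and *Saa3* were under 1 CPM in every ZT1 PBS mouse. They passed the filter on low values, at least 1 CPM in 3 of the 16 samples, through other groups. A fall could hardly be called for them, nor for any gene below whose ZT1 PBS values were all under 1 CPM. *Lcn2*, encoding the iron-siderophore trap lipocalin 2 (chromosome 2 from 32384633 to 32388252 on the minus strand), stood at 0.197, 0.148 and 0.0421 CPM in the PBS mice, 8 reads in all, and at 326, 202, 165, 170.3 and 107 CPM in the LPS mice (log2 fold change 8.19, standard error 0.26, adjusted p = 2.3e-08). Every LPS mouse was above every PBS mouse, with mouse 1 the highest. *Saa3*, serum amyloid A3, stood at 0.197, 0 and 0.126 CPM in PBS and at 259, 49.0, 91.2, 181 and 39.2 CPM in LPS mice (log2 fold change 7.33, standard error 0.52, adjusted p = 4.9e-06). *Serpina3n*, a serine protease inhibitor of reactive astrocytes and oligodendrocytes, was detected in PBS mice at 4.54, 3.9996 and 4.93 CPM and stood at 314, 152, 167, 207 and 168 CPM in LPS mice (log2 fold change 5.29, standard error 0.19, adjusted p = 5.5e-08). Smaller rises belonged to *Cp*, the ferroxidase ceruloplasmin (2.80), *Hp*, the haemoglobin scavenger haptoglobin (2.58), and *Lrg1* (2.48), a leucine-rich glycoprotein. The other 11 members, among them the fibrinogen genes, did not pass the filter on low values, and *Fga*, *Fgb* and *Fgg* stayed at or under 0.0700 CPM in every ZT1 sample.

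The receptors and feedback genes of LPS signalling were mostly higher. Of 22 tested, 20 were higher and 0 lower (16.2% of all genes were called in either direction), with a median of 0.79. *Tlr2*, a receptor for bacterial lipopeptides, rose most, from 0.641, 0.691 and 0.421 CPM to 8.26, 3.13, 5.91, 10.5 and 4.03 CPM (log2 fold change 2.55, standard error 0.31, adjusted p = 0.00025). *Bcl3*, an NF-kB co-regulator, stood at 0.148, 0.198 and 0.463 CPM in PBS and 3.03, 3.27, 2.95, 3.29 and 1.95 CPM in LPS mice (log2 fold change 2.15, standard error 0.19, adjusted p = 3e-05). The LPS receptor itself changed less: *Tlr4* had a log2 fold change of 1.07 and its partner *Cd14* of 1.62, with *Cd14* lowest in LPS mouse 2 among the LPS mice. *Lbp*, LPS-binding protein, stood at 1.92, 8.30 and 2.44 CPM in the PBS mice and at 27.1, 20.46, 15.4, 8.82 and 16.99 CPM in the LPS mice (log2 fold change 2.11, standard error 0.40, adjusted p = 0.0046); its highest PBS value was in mouse 2, the PBS mouse with choroid plexus genes, and their part in the result was not tested. The inhibitors *Nfkbia* (1.02) and *Irak3* (1.51) rose. The subunit *Rela* (0.17, adjusted p = 0.1) and the ligase *Traf6* (0.14, adjusted p = 0.21) did not pass the test.

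Most cytokine and receptor genes tested were higher. Of 20 cytokine-related genes tested 16 were higher and 0 lower, with a median of 0.96. *Osmr*, the oncostatin M receptor, rose from 3.50, 3.46 and 3.28 CPM to 16.5, 20.55, 10.99, 11.97 and 11.9 CPM (log2 fold change 1.89, standard error 0.18, adjusted p = 3.8e-05), and *Socs3*, the inhibitor of STAT3 signalling, from 4.29, 3.60 and 4.63 to 15.95, 10.5, 13.6, 15.9 and 9.97 CPM (log2 fold change 1.53, standard error 0.16, adjusted p = 8.9e-05). *Il4ra* (1.62), *Tnfrsf1b* (1.52) and the decoy receptor *Il1r2* (1.52) rose as well. *Il1b* stood at 0.345, 0.148 and 0.253 CPM in PBS and at 1.73, 0.627, 1.03, 2.42 and 1.04 CPM in LPS mice (log2 fold change 1.25, standard error 0.28, adjusted p = 0.011), a call lost without PBS mouse 2 (adjusted p = 0.053). *Tnf* stood at 0, 0 and 0.0421 CPM in PBS and 0.560, 0.134, 0.206, 0.420 and 0.363 CPM in LPS mice and did not pass the test (log2 fold change 0.68, standard error 0.22, adjusted p = 0.056). *Il6* was listed at 0 in the PBS mice and reached at most 0.134 CPM in the LPS mice, and it was not tested.

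Of 23 chemokines listed 14 were tested, and of these 9 were higher and 3 lower, with a median of 1.13. *Ccl5*, which attracts T cells and monocytes, stood at 0.296, 0.148 and 0.211 CPM in the PBS mice and at 53.2, 35.7, 54.0, 33.8 and 24.9 CPM in the LPS mice (log2 fold change 5.77, standard error 0.22, adjusted p = 7.3e-08). *Cxcl10*, an interferon-induced attractant of the same cells, stood at 0.197, 0.0494 and 0.211 CPM in PBS and 5.597, 6.09, 4.67, 3.29 and 3.99 CPM in LPS mice (log2 fold change 2.98, standard error 0.19, adjusted p = 2.8e-06). *Cxcl1*, a neutrophil attractant, was listed at 0 in all 3 PBS mice and at 1.63, 2.46, 1.79, 1.23 and 2.22 CPM in the LPS mice, at least 12.6-fold above a floor of 3 reads per library. *Ccl5*, *Cxcl10* and *Cxcl1* passed the filter on low values through groups other than ZT1 PBS, so a fall could hardly be called for them. The 3 that fell were *Cxcl12*, from 39.9, 40.6 and 38.1 CPM to 27.8, 24.7, 24.7, 24.2 and 25.1 CPM (log2 fold change -0.64, standard error 0.06, adjusted p = 3.7e-05), *Cx3cl1*, the neuronal ligand of the microglial receptor CX3CR1 (-0.38), and *Cxcl14* (-0.25), whose call was lost without PBS mouse 1 (adjusted p = 0.058). For *Cxcl12* all LPS mice were below the PBS mice, with mouse 1 the highest of the 5. *Ccl2*, the classical monocyte attractant, reached at most 1.12 CPM in the LPS mice and was not tested.

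The interferon response was called in full. All 41 interferon-stimulated genes tested were higher, with a median log2 fold change of 1.82, and 37 of them had a value over 1. All 14 guanylate-binding protein and immunity-related GTPase genes tested, which attack the vacuoles of intracellular pathogens, were higher too, with a median of 2.12. *Ifitm3*, a membrane protein that blocks virus entry, stood at 4.44, 4.35 and 4.46 CPM in the PBS mice and at 73.2, 59.1, 63.0, 53.0 and 60.7 CPM in the LPS mice (log2 fold change 3.66, standard error 0.09, adjusted p = 2e-09). The 3 PBS values were nearly equal and the 5 LPS values stayed within a narrow band. *Irf7*, the transcription factor that amplifies type I interferon, stood at 2.81, 1.78 and 1.68 CPM in PBS and 30.4, 23.5, 31.7, 24.7 and 23.1 CPM in LPS mice (log2 fold change 3.40, standard error 0.15, adjusted p = 2.1e-07), and *Oasl2*, an oligoadenylate synthetase-like gene, at 2.32, 1.38 and 2.02 CPM in PBS and 39.5, 20.1, 35.5, 26.6 and 23.3 CPM in LPS mice (log2 fold change 3.59, standard error 0.21, adjusted p = 1.4e-06). The smallest rises in the list were those of *Stat2* (0.69) and *Cmpk2* (0.60), the latter not called without PBS mouse 2 (adjusted p = 0.076) or PBS mouse 3 (adjusted p = 0.069). Among the GTPases *Gbp2* led, from 1.33, 1.23 and 1.98 CPM to 34.9, 21.1, 17.2, 16.1 and 10.01 CPM (log2 fold change 3.24, standard error 0.30, adjusted p = 3.4e-05), followed by *Gbp6* (3.04), *Gbp5* (2.84) and *Gbp4* (2.43). Members of these families are near-identical copies in places, so the split of reads between *Gbp6*, *Gbp10* or *Tgtp1* and their neighbours is uncertain.

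Promoter letters were compared between these groups because the genes moved together. The interferon-stimulated response element (ISRE) is bound by the interferon-activated transcription factor complex and by IRFs, and its core was searched as TTCNNTTTC on both strands in the 250 bases before each RefSeq start of GRCm38.p6. The core was present for 9 of the 9 guanylate-binding protein and immunity-related GTPase genes with a window and for 13 of 30 interferon-stimulated genes (43.3%). It was present for 7.49% of the 12258 tested genes with a window and 7.13% of all 32851 windows. Other lists held the core as well, with 4 of 12 chemokine, 6 of 24 activated microglial and 7 of 29 reactive astrocyte genes. So did 5 of 21 immediate early genes, a list in which most called members were lower. The core was present for 0 of 12 endothelial junction and 0 of 14 myelin genes. The kappa B motif of NF-kB, of 10 bases, was present for 7 of 15 LPS-sensing and NF-kB genes (46.7%) and 8 of 18 MHC class I genes (44.4%), against 10.7% of tested genes and 7.25% of all windows. In other inflammatory lists kappa B was present for 3 of 12 chemokine, 7 of 30 interferon-stimulated, 3 of 19 cytokine, 1 of 9 guanylate-binding protein or immunity-related GTPase, 1 of 13 complement and 0 of 6 acute-phase genes. Among further lists it was present for 3 of 8 meningeal fibroblast, 4 of 12 iron, 6 of 20 VEGF, angiopoietin and Notch and 6 of 21 immediate early genes. It was present for 1 of 14 myelin and 0 of 9 striatal and hippocampal genes. The motif was thus not particular to inflammatory lists. In all 6 motifs were searched on both strands, and the other 4, not described here, were a STAT site (TTCNNNGAA), a glucocorticoid response element (ACANNNTGT), a sterol response element (TCACNCCAC) and a cyclic AMP response element (TGACGTCA). Over all higher DEGs the shares were 11.1% for the ISRE core and 12.1% for kappa B, and over lower DEGs 6.50% and 15.8%. A match is a description of letters and not a bound site, and no match says only that the letters are not in the window. The 6 windows that follow show both arrangements, read 5′ to 3′ on the strand of the gene up to the base before its start, with matches in capitals. The first 3 are genes of the interferon response with 2 or 3 cores each. *Cxcl10* and *Nfkbia* hold both motifs without overlap between them, and *Nfkbia* is the inhibitor through which NF-kB limits itself. *H2-K1* holds 2 overlapping kappa B matches in the first of its 2 windows.
Isg15 (chr4:156200819-156201068, minus strand): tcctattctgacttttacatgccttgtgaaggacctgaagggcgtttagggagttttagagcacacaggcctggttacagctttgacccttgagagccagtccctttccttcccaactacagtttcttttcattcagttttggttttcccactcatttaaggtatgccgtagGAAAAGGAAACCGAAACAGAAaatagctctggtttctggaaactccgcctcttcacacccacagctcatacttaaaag
Ifit3 (chr19:34583279-34583528, plus strand): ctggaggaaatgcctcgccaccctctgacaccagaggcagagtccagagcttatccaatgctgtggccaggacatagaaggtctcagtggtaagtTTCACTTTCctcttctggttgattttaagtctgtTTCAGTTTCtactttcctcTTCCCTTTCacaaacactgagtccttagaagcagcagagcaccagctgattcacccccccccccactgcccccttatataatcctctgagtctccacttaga
Irgm1 (chr11:48871421-48871670, minus strand): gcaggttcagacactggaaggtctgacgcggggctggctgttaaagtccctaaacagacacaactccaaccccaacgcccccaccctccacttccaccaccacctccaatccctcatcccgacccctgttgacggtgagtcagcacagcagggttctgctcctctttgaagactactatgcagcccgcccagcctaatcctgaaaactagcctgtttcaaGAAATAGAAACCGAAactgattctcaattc
Cxcl10 (chr5:92348890-92349139, minus strand): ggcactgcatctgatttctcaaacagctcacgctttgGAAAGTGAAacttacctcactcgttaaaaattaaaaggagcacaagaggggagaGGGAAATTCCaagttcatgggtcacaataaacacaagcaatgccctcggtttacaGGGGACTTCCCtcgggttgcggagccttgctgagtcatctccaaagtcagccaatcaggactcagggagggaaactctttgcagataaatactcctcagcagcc
H2-K1 (chr17:34000348-34000597, minus strand): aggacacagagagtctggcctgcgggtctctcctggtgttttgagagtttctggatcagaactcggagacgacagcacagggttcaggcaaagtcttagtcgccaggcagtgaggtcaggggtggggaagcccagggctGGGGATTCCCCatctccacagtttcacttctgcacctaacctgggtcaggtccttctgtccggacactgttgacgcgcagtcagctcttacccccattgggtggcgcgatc
Nfkbia (chr12:55492648-55492897, minus strand): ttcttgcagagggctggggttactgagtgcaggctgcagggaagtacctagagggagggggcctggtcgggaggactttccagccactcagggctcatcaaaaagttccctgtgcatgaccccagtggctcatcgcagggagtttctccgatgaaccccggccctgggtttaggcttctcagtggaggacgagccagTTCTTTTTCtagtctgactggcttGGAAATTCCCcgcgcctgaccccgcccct

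*Isg15* has its 3 cores beginning at positions -78, -72 and -66 from the start and *Irgm1* its 2 at -30 and -24, so neighbouring cores overlap. The 3 cores of *Ifit3*, at -155, -121 and -102, stand apart. *Isg15*, a ubiquitin-like modifier, stood at 1.38, 1.23 and 0.884 CPM in the PBS mice and at 8.58, 4.07, 10.3, 7.07 and 5.80 CPM in the LPS mice (log2 fold change 2.15, standard error 0.24, adjusted p = 0.00014). *Ifit3*, an RNA-binding antiviral gene, stood at 5.32, 3.29 and 5.68 CPM in PBS and 19.0, 23.5, 28.9, 24.5 and 25.4 CPM in LPS mice (log2 fold change 2.25, standard error 0.16, adjusted p = 5.9e-06). *Irgm1*, a regulator of autophagy of pathogens, stood at 5.37, 5.23 and 4.63 CPM in PBS and 23.6, 19.6, 22.5, 21.7 and 15.5 CPM in LPS mice (log2 fold change 1.90, standard error 0.12, adjusted p = 2.8e-06). All 3 were separated from PBS without overlap.

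MHC class I presentation, which displays cytosolic peptides to CD8 T cells, was mostly higher, from proteasome subunits to surface molecules. Of 22 genes tested 19 were higher and 0 lower, with a median of 1.58. The heavy chain *H2-K1* rose from 8.93, 9.83 and 13.2 CPM to 108, 60.03, 89.8, 88.6 and 70.0 CPM (log2 fold change 2.90, standard error 0.17, adjusted p = 1.5e-06) and the light chain *B2m* by a log2 fold change of 1.94. The immunoproteasome subunit *Psmb8* (2.95), the peptide pump *Tap1* (2.17) and *Nlrc5*, the activator of class I genes (2.35), rose with them. *H2-Q4* had the largest value of the list (3.58), but class I heavy chains are close copies and their reads may have been split between them. In MHC class II presentation 2 of 8 tested genes were higher (25%, beside 16.2% of all genes called), or 4 without LPS mouse 2. They were the invariant chain *Cd74* (log2 fold change 1.06, standard error 0.18, adjusted p = 0.0022) and the protease *Ctss* (log2 fold change 1.35, standard error 0.17, adjusted p = 0.00035), while *H2-Ab1* (0.54, adjusted p = 0.18), *H2-Aa* (-0.07, adjusted p = 0.88) and the activator *Ciita* (-0.14, adjusted p = 0.56) did not pass the test.

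Most complement genes tested were higher. Of 22 tested genes 17 were higher and 0 lower, with a median of 1.74. *C3*, the component on which the pathways converge (chromosome 17 from 57203970 to 57228136 on the minus strand), stood at 0.296, 0.395 and 0.674 CPM in the PBS mice and at 66.0, 14.9, 28.8, 39.1 and 39.5 CPM in the LPS mice (log2 fold change 5.19, standard error 0.36, adjusted p = 4.1e-06). *C4b*, of the classical pathway, stood at 19.0, 19.6 and 19.9 CPM in PBS and 127, 93.4, 113, 142 and 103 CPM in LPS mice (log2 fold change 2.53, standard error 0.11, adjusted p = 1.8e-07). LPS mouse 2 was the lowest for both. *C1qa* (1.94), *C1ra* (2.93) and *Cfb* of the alternative pathway (2.78) rose, as did the receptors *C5ar1* (2.47) and *C3ar1* (1.75) and the C1 inhibitor *Serping1* (2.31). The membrane regulators *Cd55* (0.36, adjusted p = 0.27) and *Cd59a* (0.01, adjusted p = 0.98) did not pass the test.

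**Figure D2:**
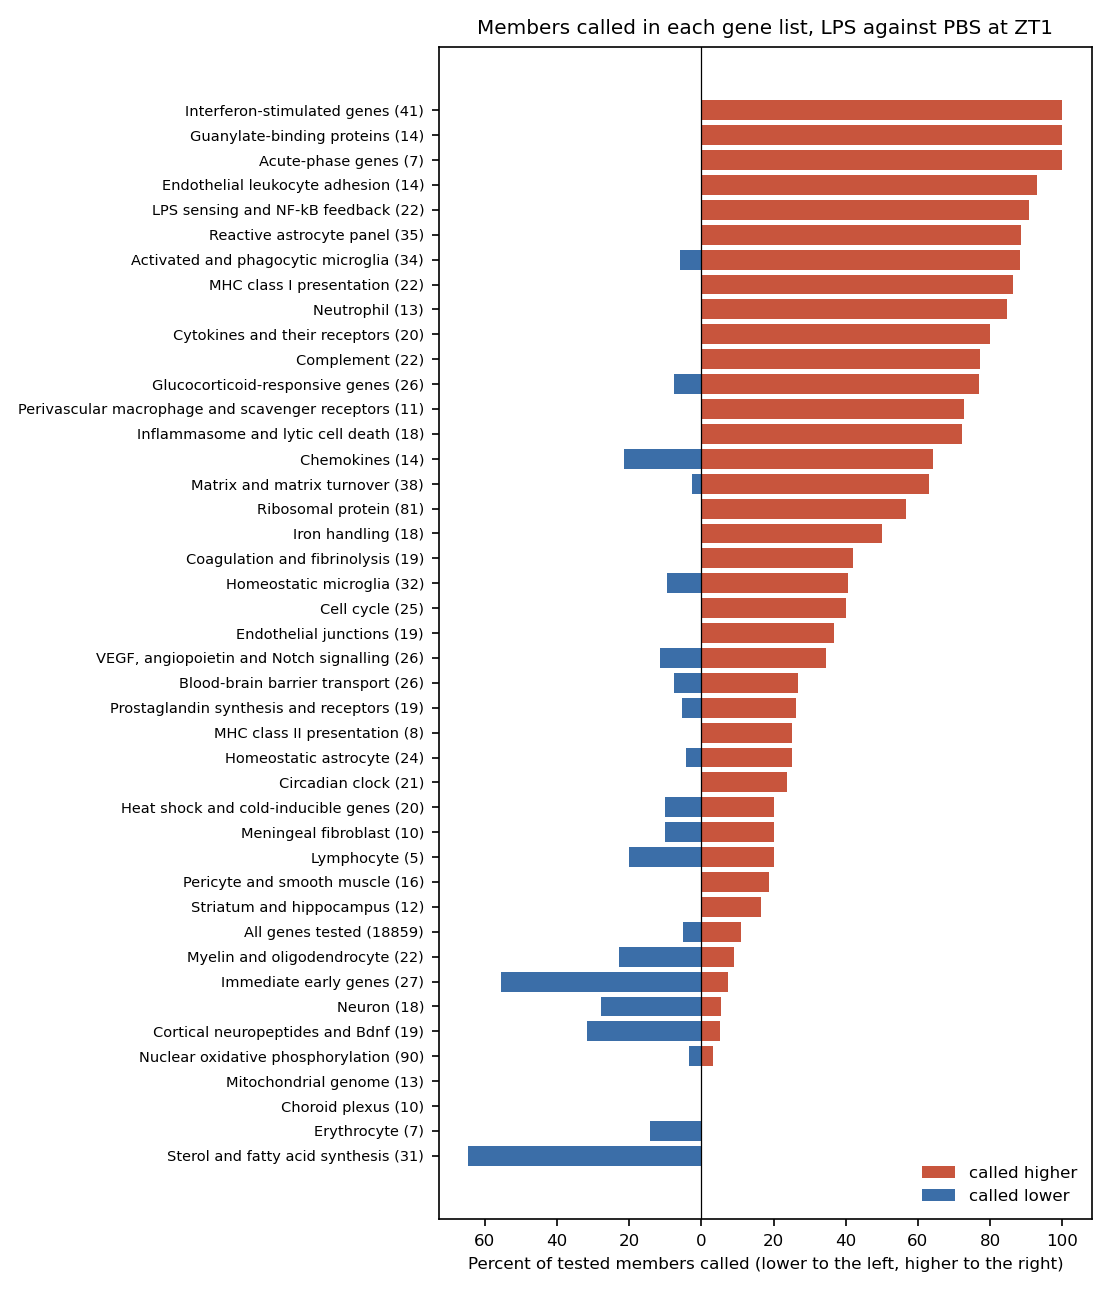
Percent of the tested members of each gene list that were called higher (right) or lower (left) in LPS than in PBS cortex at ZT1, with the number of members tested in brackets. All tested interferon-stimulated, guanylate-binding or immunity-related GTPase and acute-phase genes were higher, and 20 of 31 sterol and fatty acid genes were lower with 0 higher.

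The 2 lists of microglial genes differed in how many members were higher. Of 34 genes of activated and phagocytic microglia tested, 30 were higher and 2 lower, with a median of 1.56. *Cybb*, the catalytic subunit of the phagocyte NADPH oxidase, stood at 0.197, 0.296 and 0.253 CPM in the PBS mice and at 22.7, 5.37, 9.17, 16.04 and 5.48 CPM in the LPS mice (log2 fold change 3.82, standard error 0.40, adjusted p = 8.1e-05), with LPS mice 2 and 5 the lowest. *Msr1*, a scavenger receptor, stood at 0, 0.0988 and 0.168 CPM in PBS and 10.9, 6.31, 6.22, 7.84 and 3.76 CPM in LPS mice (log2 fold change 3.61, standard error 0.26, adjusted p = 5.8e-06), and *Fcgr4*, an Fc receptor, at 0.148, 0.0494 and 0.0842 CPM in PBS and 6.44, 2.91, 4.98, 5.85 and 2.95 CPM in LPS mice (log2 fold change 3.05, standard error 0.25, adjusted p = 1.3e-05). The oxidase subunits *Ncf1* (2.05), *Ncf4* (1.86) and *Cyba* (1.96) rose too. *Cybb*, *Msr1* and *Fcgr4* passed the filter on low values through groups other than ZT1 PBS, so a fall could hardly be called for them. *Cybb* ordered the 5 LPS mice as the neutrophil gene *S100a9* did. Phagocytes other than microglia may hold these transcripts, and their share was not tested. *Tspo*, the target of neuroinflammation imaging, had a log2 fold change of 2.37. The 2 that fell were *Apoe* (-0.20) and *Lpl* (-0.48), lipid genes of the plaque-associated state that other cells of the cortex also express. *Nos2*, inducible nitric oxide synthase, stood at 0.937, 0.444 and 0.758 CPM in PBS and 1.91, 0.716, 0.653, 1.65 and 0.861 CPM in LPS mice and did not pass the test (log2 fold change 0.40, standard error 0.27, adjusted p = 0.36).

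Of 32 genes of homeostatic microglia, 13 were higher and 3 lower, with a median of 0.16, and the list did not move as 1 group. *Siglech*, a sialic acid-binding lectin that marks resident microglia, fell from 7.25, 6.81 and 6.95 CPM to 1.21, 1.34, 1.72, 2.24 and 2.40 CPM (log2 fold change -1.75, standard error 0.18, adjusted p = 7.9e-05). *P2ry12*, the purinergic receptor that steers microglial processes, fell from 12.6, 12.7 and 11.2 CPM to 5.36, 3.85, 5.05, 6.93 and 6.98 CPM (log2 fold change -1.07, standard error 0.16, adjusted p = 0.0012), and *Slc2a5*, a fructose transporter, from 2.96, 3.01 and 2.15 to 0.700, 0.582, 0.824, 0.805 and 1.63 CPM (log2 fold change -1.22, standard error 0.22, adjusted p = 0.0033). All 5 LPS mice were below all 3 PBS mice for each of these. The growth factor receptor *Csf1r* rose from 82.4, 74.1 and 77.1 CPM to 124, 87.6, 116, 141 and 126 CPM (log2 fold change 0.59, standard error 0.12, adjusted p = 0.006). *Tmem119* (log2 fold change 0.72, standard error 0.16, adjusted p = 0.01) lost its call without PBS mouse 3 (adjusted p = 0.051), and *Cx3cr1* (log2 fold change 0.64, standard error 0.16, adjusted p = 0.02) without PBS mouse 1 (adjusted p = 0.06), PBS mouse 2 (adjusted p = 0.071) or PBS mouse 3 (adjusted p = 0.083). In both the groups came closest at LPS mouse 2, at 24.3, 14.8, 23.2, 26.6 and 26.1 CPM for *Tmem119* and 51.3, 32.7, 52.5, 63.9 and 53.4 CPM for *Cx3cr1* in the 5 LPS mice. The largest rises in the list were *Itgam*, the complement receptor CD11b shared with neutrophils and monocytes (2.22), and *Gpr84* (2.09), both of which also mark activation. *Trem2* (-0.01, adjusted p = 0.99), *Fcrls* (-0.57, adjusted p = 0.28) and *P2ry13* (-0.15, adjusted p = 0.7) did not pass the test. In these bulk samples fewer cells of a type and less RNA per cell cannot be told apart, here or for any cell type that follows.

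Of 16 genes of perivascular macrophages and scavenger receptors listed, 11 were tested, and of these 8 were higher and 0 lower, with a median of 1.07. Among the untested, *Pf4* lay lower in LPS mice, at 0.337 to 0.839 CPM in PBS and 0 to 0.420 CPM in LPS mice. The untested *Cd36*, *Ms4a7*, *Clec10a* and *Folr2* overlapped between the groups. *Marco*, a scavenger receptor for bacteria, was listed at 0 in all 3 PBS mice and stood at 73.8, 14.5, 37.2, 53.2 and 11.6 CPM in the LPS mice, at least 257-fold above the floor of 3 reads per library. *Siglec1*, an interferon-induced macrophage lectin, stood at 0.542, 0.543 and 0.800 CPM in PBS and 18.1, 5.37, 13.4, 18.1 and 10.1 CPM in LPS mice (log2 fold change 3.47, standard error 0.32, adjusted p = 3.4e-05), and *Ms4a6c* at 0.296, 0.0988 and 0.113 CPM in PBS and 12.9, 6.49, 8.24, 9.45 and 5.69 CPM in LPS mice (log2 fold change 3.72, standard error 0.23, adjusted p = 1.9e-06). LPS mice 2 and 5 held the lowest values of all 3 genes. *Marco*, *Siglec1* and *Ms4a6c* passed the filter on low values through groups other than ZT1 PBS, so a fall could hardly be called for them. *Cd163*, the haemoglobin receptor of perivascular macrophages, rose (1.07), while *Mrc1* (-0.06, adjusted p = 0.88) and *Lyve1* (0.54, adjusted p = 0.078) did not pass the test.

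Most reactive astrocyte genes rose, while most homeostatic ones did not pass the test. Of 35 genes of the reactive panel tested 31 were higher and 0 lower, with a median of 1.77. *Timp1*, a metalloproteinase inhibitor secreted by reactive astrocytes, stood at 0.542, 0.444 and 0.758 CPM in PBS and 20.1, 12.3, 12.1, 12.9 and 7.84 CPM in LPS mice (log2 fold change 3.59, standard error 0.23, adjusted p = 2.4e-06), and *Steap4*, a metalloreductase, at 0.0986, 0.642 and 0.0842 CPM in PBS and 7.09, 5.51, 5.81, 3.57 and 4.26 CPM in LPS mice (log2 fold change 2.93, standard error 0.25, adjusted p = 2.3e-05). *Gfap*, given per sample above, changed by 2.64 (standard error 0.13) on the log2 scale, and *Vim*, vimentin, of 1.93. *C3* and *Lcn2* are in this panel as well, and microglia or endothelial cells can be their source, so the panel is no count of astrocytes. Of 24 homeostatic genes 6 were higher and 1, the GABA transporter *Slc6a11*, was lower (-0.19). *Aldh1l1*, the folate enzyme used to mark astrocytes, rose from 45.7, 47.3 and 47.9 CPM to 74.2, 71.0, 68.3, 69.3 and 65.0 CPM (log2 fold change 0.56, standard error 0.05, adjusted p = 2.7e-05), and *Gjb6*, connexin 30, had a log2 fold change of 0.61. *Aqp4*, the water channel of the endfeet, was called (log2 fold change 0.42, standard error 0.11, adjusted p = 0.022) but not without PBS mouse 1 (adjusted p = 0.055), PBS mouse 2 (adjusted p = 0.079) or PBS mouse 3 (adjusted p = 0.094). The glutamate transporter *Slc1a2* (-0.04, adjusted p = 0.55) did not pass the test.

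**Figure D3:**
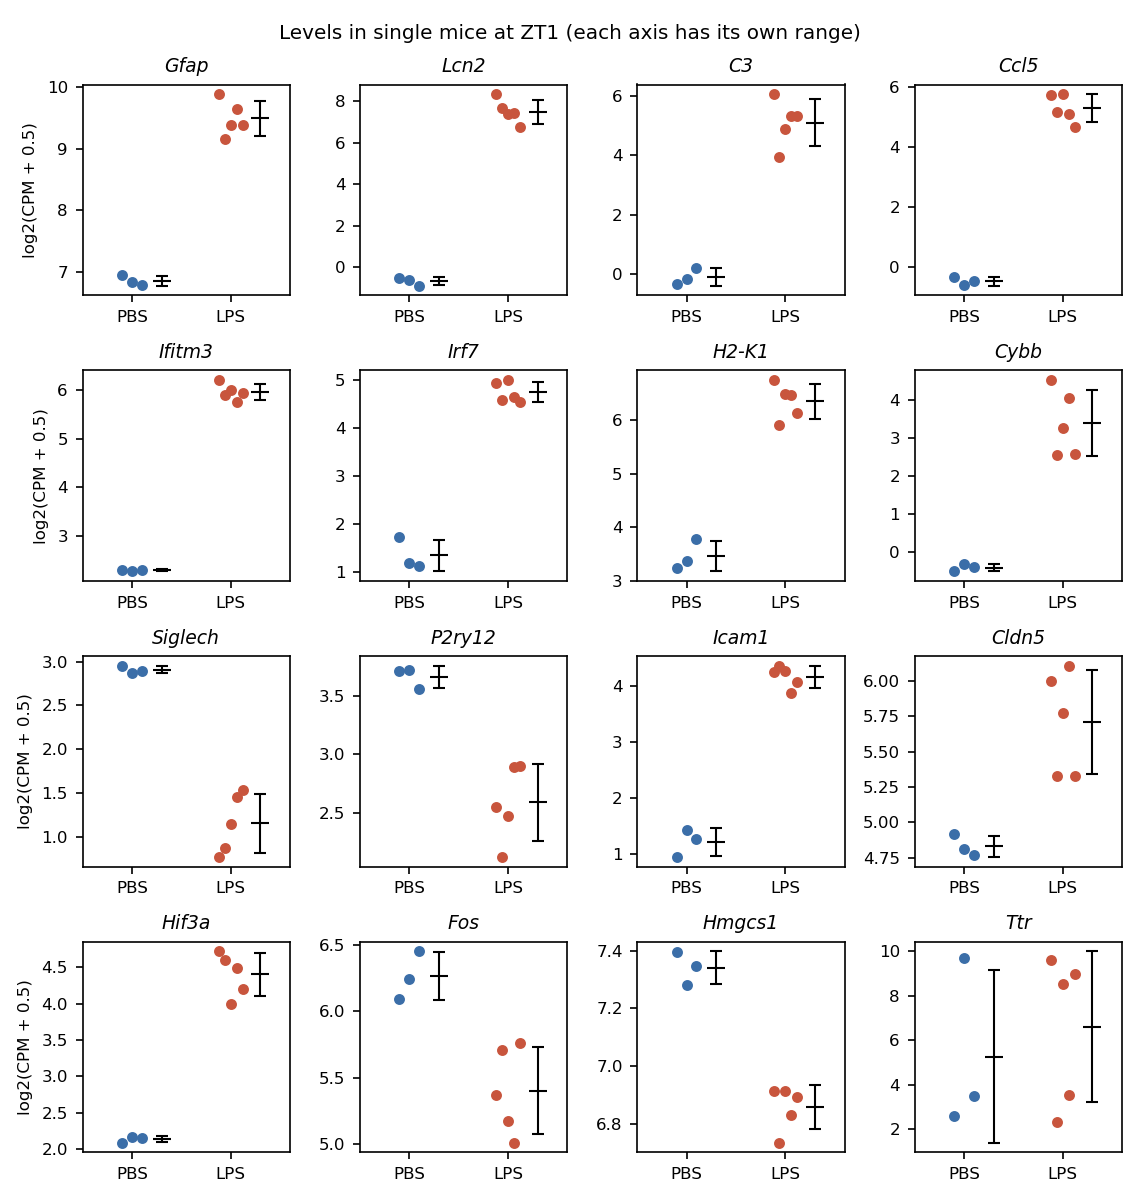
Levels as log2(CPM + 0.5) in each mouse at ZT1 for 16 genes, PBS in blue and LPS in red, with the mean and SD of each group beside the points. The 2 groups do not overlap for the first 15 genes, and they overlap for *Ttr*.

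Of 14 endothelial leukocyte adhesion genes tested 13 were higher and 0 lower, with a median of 1.47. The cells that held these transcripts were not determined in bulk RNA. *Selp*, P-selectin, on which leukocytes roll, stood at 0.0493, 0 and 0.0421 CPM in PBS and 5.13, 2.94, 3.74, 3.35 and 5.56 CPM in LPS mice (log2 fold change 3.10, standard error 0.20, adjusted p = 2.4e-06). *Icam1*, the ligand of leukocyte integrins, stood at 1.42, 2.18 and 1.90 CPM in PBS and 18.6, 20.03, 18.8, 14.1 and 16.4 CPM in LPS mice (log2 fold change 2.95, standard error 0.14, adjusted p = 2.6e-07), and *Vcam1* at 12.5, 13.4 and 12.5 CPM in PBS and 47.8, 27.6, 41.5, 39.6 and 33.2 CPM in LPS mice (log2 fold change 1.51, standard error 0.14, adjusted p = 3.8e-05). The rise of *Icam1* was even over the 5 mice. *Sele*, E-selectin, stood at 0.0493, 0 and 0.0842 CPM in PBS and 0.653, 2.82, 0.962, 0.455 and 2.13 CPM in LPS mice (log2 fold change 1.64, standard error 0.37, adjusted p = 0.011), with mice 2 and 5 the highest, the mice that were lowest for the macrophage genes. *Selp* and *Sele* passed the filter on low values through groups other than ZT1 PBS, so a fall could hardly be called for them. *Vwf*, which tethers platelets, had a log2 fold change of 1.75.

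Junction genes had smaller values. Of 19 tested 7 were higher and 0 lower, with a median of 0.12. *Cldn5*, the main claudin of the blood-brain barrier (BBB) (chromosome 16 from 18776847 to 18778262 on the plus strand), rose from 29.7, 27.6 and 26.7 CPM to 63.4, 39.7, 54.2, 68.4 and 39.7 CPM (log2 fold change 0.88, standard error 0.17, adjusted p = 0.0044), with LPS mice 2 and 5 the lowest. *Cdh5*, VE-cadherin, rose from 14.0, 15.4 and 13.9 CPM to 29.01, 23.99, 27.2, 26.0 and 26.8 CPM (log2 fold change 0.86, standard error 0.07, adjusted p = 1.6e-05), and *F11r*, junctional adhesion molecule A, by 1.18. Occludin, *Ocln* (0.27, adjusted p = 0.19), and ZO-1, *Tjp1* (0.12, adjusted p = 0.15), did not pass the test.

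Of 26 VEGF, angiopoietin and Notch genes 9 were higher and 3 lower, with a median of 0.06. The ligand *Vegfa* fell from 66.2, 57.4 and 58.1 CPM to 37.2, 31.3, 42.9, 37.3 and 42.1 CPM (log2 fold change -0.67, standard error 0.09, adjusted p = 0.00075) and its receptor *Flt1* from 62.6, 59.4 and 62.5 to 47.9, 44.9, 53.0, 47.7 and 52.1 CPM (log2 fold change -0.32, standard error 0.06, adjusted p = 0.0036). *Kdr*, the main signalling receptor, stood at 16.03, 16.7 and 14.8 CPM in PBS and 18.004, 9.04, 15.7, 17.4 and 14.8 CPM in LPS mice and did not pass the test (log2 fold change -0.11, standard error 0.18, adjusted p = 0.72). *Angptl4*, a lipoprotein lipase inhibitor that glucocorticoids and fasting induce, rose from 0.986, 1.48 and 0.674 CPM to 7.09, 10.4, 5.70, 6.48 and 6.16 CPM (log2 fold change 2.31, standard error 0.21, adjusted p = 2.7e-05), and the endothelial receptors *Flt4* (1.21) and *Acvrl1* (1.07) rose. *Apln*, apelin, a ligand of tip endothelial cells outside this list, fell from 14.3, 12.3 and 13.8 CPM to 5.13, 2.42, 4.64, 8.33 and 6.80 CPM (log2 fold change -1.32, standard error 0.28, adjusted p = 0.0077). Without PBS mouse 3, 7 members of the list were called in place of 12.

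Of 26 BBB transport genes 7 were higher and 2 lower, with a median of 0.26. *Slc2a1*, the glucose transporter GLUT1 of endothelium and astrocytes, rose from 63.5, 66.3 and 71.9 CPM to 127, 113, 111, 136 and 103 CPM (log2 fold change 0.80, standard error 0.08, adjusted p = 8e-05). *Slc22a8*, the organic anion transporter OAT3, fell from 14.5, 14.5 and 13.6 CPM to 4.29, 2.95, 4.84, 5.64 and 6.98 CPM (log2 fold change -1.48, standard error 0.20, adjusted p = 0.00048), the largest fall of any listed transporter, with no overlap. The drug efflux pump *Abcb1a* (0.29, adjusted p = 0.26) and the caveolar gene *Cav1* (0.27, adjusted p = 0.46) did not pass the test. The count was 5 without PBS mouse 3, 6 without PBS mouse 2 and 14 without LPS mouse 2. The mural cells, pericytes and smooth muscle, gave 3 of 16 genes higher and 0 lower (18.8% called, close to the 16.2% of all genes tested). For these cells 0 were called without PBS mouse 2, 1 without PBS mouse 1 or 3. *Pdgfrb* (0.07, adjusted p = 0.64), *Rgs5* (-0.15, adjusted p = 0.34) and *Acta2* (-0.21, adjusted p = 0.64), which define these cells, did not pass the test.

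Matrix and matrix turnover gave 24 of 38 higher and 1 lower, with a median of 0.51. *Mmp3*, stromelysin 1, was listed at 0 in the PBS mice and at 16.2, 5.95, 9.45, 4.90 and 2.85 CPM in the LPS mice, at least 53.2-fold above the floor of 3 reads per library. *Spp1*, osteopontin, rose from 4.14, 6.91 and 5.43 CPM to 48.4, 28.3, 41.2, 34.3 and 39.7 CPM (log2 fold change 2.70, standard error 0.17, adjusted p = 2.3e-06). The basement membrane collagen *Col4a1* rose from 58.2, 66.1 and 60.5 CPM to 167, 116, 134, 144 and 117 CPM (log2 fold change 1.12, standard error 0.10, adjusted p = 3.5e-05), and decorin, *Dcn*, by 1.54. *Fmod*, fibromodulin, fell from 19.4, 26.7 and 25.0 CPM to 13.2, 11.6, 11.7, 12.8 and 14.4 CPM (log2 fold change -0.86, standard error 0.11, adjusted p = 0.0003). The fibrillar collagen *Col1a1* (0.13, adjusted p = 0.49) did not pass the test. *Myoc*, myocilin, a secreted glycoprotein outside the list, fell from 17.01, 17.4 and 19.2 CPM to 7.18, 3.94, 4.05, 7.63 and 5.89 CPM (log2 fold change -1.60, standard error 0.19, adjusted p = 0.00025).

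Most neutrophil genes tested were higher. Of 13 neutrophil genes tested 11 were higher and 0 lower, with a median of 2.06, and the list shares *Lcn2* with the reactive astrocyte panel. *S100a8*, *S100a9*, *Cxcr2* and *Mmp8* reached 1 CPM in no ZT1 PBS mouse and passed the filter through other groups. A fall could hardly be called for such genes, so the directions are no test. *S100a9*, a calprotectin subunit, stood at 0.394, 0.0988 and 0.0842 CPM in the PBS mice and at 26.4, 4.61, 9.996, 24.2 and 4.94 CPM in the LPS mice (log2 fold change 4.07, standard error 0.52, adjusted p = 0.00035), and its partner *S100a8* at 0.148, 0.148 and 0.0421 CPM in PBS and 10.7, 1.21, 3.54, 8.37 and 2.04 CPM in LPS mice (log2 fold change 2.87, standard error 0.52, adjusted p = 0.0034). *Cxcr2*, the neutrophil chemokine receptor, was listed at 0 in the PBS mice and at 6.67, 0.671, 2.10, 7.18 and 1.36 CPM in the LPS mice, at least 24.3-fold above the floor of 3 reads per library. LPS mice 1 and 4 were high and mice 2 and 5 low for all 3. Of the granule genes, *Mmp8*, neutrophil collagenase, stood at 0, 0 and 0.0421 CPM in PBS and 3.45, 0.940, 1.72, 3.26 and 0.952 CPM in LPS mice (log2 fold change 2.18, standard error 0.34, adjusted p = 0.0014). Lactoferrin, *Ltf*, was not tested and reached at most 0.197 CPM in PBS and 1.13 CPM in LPS mice. Also untested, *Camp* reached at most 0.0986 CPM in PBS and 0.224 CPM in LPS mice. *Mpo*, not tested either, went the other way, at 0.126 to 0.641 CPM in PBS and 0.0453 to 0.172 CPM in LPS mice. The surface antigen *Ly6g* was listed at 0 in every PBS mouse and reached at most 0.140 CPM in LPS mice, and the elastase *Elane* at most 0.0343 CPM. Most lymphocyte genes were too low to test. Of 5 tested 1 was higher and 1 lower, and *Cd3e* reached at most 0.140 CPM in any ZT1 sample. *Gzma*, granzyme A, was listed at 0 in the PBS mice and stood at 0.933, 0.134, 0.447, 0.805 and 0.227 CPM in the LPS mice, at least 3.44-fold above that floor (adjusted p = 0.041), and its call was lost without PBS mouse 1 (adjusted p = 0.12), PBS mouse 2 (adjusted p = 0.11), PBS mouse 3 (adjusted p = 0.11), LPS mouse 1 (adjusted p = 0.08), LPS mouse 3 (adjusted p = 0.074) or LPS mouse 4 (adjusted p = 0.087). *Gzma* reached 1 CPM in no ZT1 sample and passed the filter through ZT13 samples. *Ighm*, the immunoglobulin M heavy chain, fell from 14.2, 10.5 and 13.4 CPM to 3.26, 8.15, 8.35, 4.10 and 6.66 CPM (log2 fold change -1.07, standard error 0.26, adjusted p = 0.017), a call lost without PBS mouse 1 (adjusted p = 0.086) or PBS mouse 3 (adjusted p = 0.078). The lymphocyte count was 0 without PBS mouse 1 or 3, 1 without PBS mouse 2 or LPS mouse 1, 3 or 4, and 3 without LPS mouse 2. Of 7 erythrocyte genes 0 were higher and 1 lower (14.3% called, beside 16.2% of all genes), or 0 without PBS mouse 2 or 3. *Hbb-bs*, a beta-globin, stood at 3.06, 1.67 and 1.83 CPM in PBS and 6.76, 10.5, 1.38, 1.02 and 1.11 CPM in LPS mice.

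Further groups linked to inflammation were called in part. Of 18 inflammasome and lytic cell death genes 13 were higher and 0 lower, with *Nlrp3*, the sensor, at 0.592, 0.543 and 0.632 CPM in PBS and 2.89, 1.84, 2.13, 2.94 and 1.68 CPM in LPS mice (log2 fold change 1.34, standard error 0.18, adjusted p = 0.0006), and *Gsdmd*, the pore former, at a log2 fold change of 1.14. Of 18 iron genes 9 were higher and 0 lower, and the higher ones included *Lcn2*, which other lists count too. The ferritin heavy chain *Fth1* rose from 848, 802 and 832 CPM to 1527, 1223, 1379, 1482 and 1333 CPM (log2 fold change 0.74, standard error 0.06, adjusted p = 1.8e-05) and the haem oxygenase *Hmox1* by 1.20, while the exporter *Slc40a1* (-0.28, adjusted p = 0.52) did not pass the test. Of 19 coagulation genes 8 were higher and 0 lower, *Vwf* among the higher. Of 19 prostaglandin genes 5 were higher and 1, the degrading enzyme *Hpgd*, lower (-0.57, lost without PBS mouse 3 (adjusted p = 0.091)). *Ptges*, the synthase of prostaglandin E2, rose from 3.50, 2.72 and 2.61 CPM to 7.56, 7.79, 6.18, 4.59 and 5.89 CPM (log2 fold change 0.99, standard error 0.16, adjusted p = 0.0021), and *Alox5ap*, which serves leukotriene synthesis, by 1.89. Of 25 cell cycle genes 10 were higher and 0 lower, led by *Mcm3* (log2 fold change 1.50, standard error 0.27, adjusted p = 0.0032). This count fell to 4 without PBS mouse 1, 6 without PBS mouse 2 or 3 or LPS mouse 3.

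Most glucocorticoid-responsive genes were higher. Of 26 tested 20 were higher and 2 lower, with a median of 0.86, and this included *Lcn2*, which inflammation induces too. *Hif3a*, a hypoxia factor that glucocorticoids induce, rose from 3.75, 3.9996 and 3.96 CPM to 25.9, 23.9, 15.5, 21.9 and 17.99 CPM (log2 fold change 2.27, standard error 0.14, adjusted p = 2.4e-06). *Plin4*, a lipid droplet protein, rose from 11.1, 9.88 and 10.7 CPM to 65.4, 99.5, 44.6, 48.6 and 37.7 CPM (log2 fold change 2.35, standard error 0.24, adjusted p = 8e-05), and *Fkbp5*, the co-chaperone that restrains the receptor, from 25.0, 22.1 and 23.3 to 81.6, 134, 71.1, 73.9 and 60.2 CPM (log2 fold change 1.77, standard error 0.19, adjusted p = 0.00012). LPS mouse 2 was the highest for *Plin4* and *Fkbp5*, although it was the lowest for *Tlr2*, *C3* and *Siglec1*. *Sgk1* (1.04) and *Mt1*, metallothionein 1 (1.62), rose. The phosphatase *Dusp1*, also an immediate early gene, fell (-0.54). The receptor *Nr3c1* fell (log2 fold change -0.18, standard error 0.04, adjusted p = 0.016), a call lost without PBS mouse 1 (adjusted p = 0.09) or PBS mouse 3 (adjusted p = 0.067).

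Of 21 clock genes 5 were higher and 0 lower (23.8% called, beside 16.2% of all genes), with a median of 0.19. With median-of-ratios factors 2 were higher and 1 lower. *Nr1d1*, the repressor REV-ERB alpha, rose from 116, 104 and 118 CPM to 137, 146, 151, 134 and 136 CPM (log2 fold change 0.32, standard error 0.06, adjusted p = 0.0028), and *Hlf* by 0.24. *Per1* (0.24, adjusted p = 0.093), *Per2* (0.19, adjusted p = 0.3) and *Arntl*, the gene of BMAL1 (-0.22, adjusted p = 0.055), did not pass the test. The count was 2 without PBS mouse 2 or LPS mouse 4, 3 without LPS mouse 2 or 3, and 9 without LPS mouse 5.

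Falls were found among neuronal activity genes. Of 27 immediate early genes tested 15 were lower and 2 higher, with a median of -0.42. *Fos*, the activity-induced AP-1 gene, fell from 67.7, 75.3 and 87.0 CPM to 40.8, 51.7, 35.7, 31.7 and 53.7 CPM (log2 fold change -0.86, standard error 0.16, adjusted p = 0.0036), and *Npas4*, a neuronal activity factor, from 75.4, 56.3 and 52.0 to 26.9, 36.1, 30.1, 24.9 and 45.7 CPM (log2 fold change -0.91, standard error 0.18, adjusted p = 0.0054). Both had LPS mouse 5 as the LPS mouse nearest to PBS. *Arc* stood at 561, 441 and 667 CPM in PBS and 239, 346, 266, 281 and 456 CPM in LPS mice, with overlap (log2 fold change -0.83, standard error 0.19, adjusted p = 0.012), a call lost without PBS mouse 1 (adjusted p = 0.054) or PBS mouse 3 (adjusted p = 0.073). The 2 higher genes were *Klf2*, a flow-responsive endothelial factor (0.59), and *Ptgs2*, the inducible cyclooxygenase (0.65). The call of *Klf2* was lost with median-of-ratios factors (adjusted p = 0.052) and without PBS mouse 1 (adjusted p = 0.17), PBS mouse 2 (adjusted p = 0.098) or LPS mouse 5 (adjusted p = 0.053), and that of *Ptgs2* with those factors (adjusted p = 0.058) and without PBS mouse 1 (adjusted p = 0.19), PBS mouse 2 (adjusted p = 0.072), LPS mouse 2 (adjusted p = 0.06), LPS mouse 3 (adjusted p = 0.071), LPS mouse 4 (adjusted p = 0.065) or LPS mouse 5 (adjusted p = 0.058). The count of members called fell from 17 to 10, 8 and 9 without PBS mouse 1, 2 and 3. Of 19 neuropeptide genes with *Bdnf*, 6 were lower and 1, *Vip*, higher (0.32, lost without PBS mouse 1 (adjusted p = 0.081)), and *Cck* fell from 199, 185 and 180.2 CPM to 131, 139.7, 142, 147 and 147 CPM (log2 fold change -0.41, standard error 0.05, adjusted p = 0.00025), *Sst* from 125, 120.0 and 122 to 80.4, 107, 92.8, 83.2 and 93.2 CPM (log2 fold change -0.43, standard error 0.08, adjusted p = 0.0039), and *Vgf*, a neurotrophin-induced peptide precursor, from 329, 338 and 330.1 to 179, 242, 213, 217 and 286 CPM (log2 fold change -0.56, standard error 0.11, adjusted p = 0.0059). *Bdnf* did not pass the test (log2 fold change -0.52, standard error 0.19, adjusted p = 0.089). Counts for neuropeptides ran from 4 without PBS mouse 2 or 3 to 11 without LPS mouse 5. 

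Pan-neuronal genes had small values. Of 18 tested 5 were lower and 1 higher, with a median of -0.09, led by *Tubb3*, class III tubulin (log2 fold change -0.55, standard error 0.07, adjusted p = 0.00046), while *Snap25* (-0.01, adjusted p = 0.94), *Slc17a7* (-0.09, adjusted p = 0.13) and *Gad1* (-0.09, adjusted p = 0.26) did not pass the test. The neuronal count was 2 without PBS mouse 3, 3 without PBS mouse 2 or LPS mouse 4, 4 without PBS mouse 1 or LPS mouse 3, and 7 without LPS mouse 2 or 5. With median-of-ratios factors 9 were lower and 0 higher.

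Sterol and fatty acid synthesis genes were mostly lower. Of 31 genes tested 20 were lower and 0 higher, with a median of -0.24, and with median-of-ratios factors 21 were lower. *Hmgcs1*, an early enzyme of sterol synthesis, fell from 168, 155 and 162 CPM to 120.1, 106, 120.2, 113 and 118 CPM (log2 fold change -0.48, standard error 0.05, adjusted p = 7.9e-05). *Srebf2*, the transcription factor of the pathway, fell from 325, 319 and 317 CPM to 212, 205, 246, 243 and 252 CPM (log2 fold change -0.47, standard error 0.07, adjusted p = 0.00071), and *Sqle* (-0.36), *Msmo1* (-0.47) and the desaturase *Fads2* (-0.43) fell. Changes were small, with list medians of -0.31 to -0.24 in the 5 LPS mice. *Srebf1* (0.23, adjusted p = 0.13) did not pass the test.

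Of 22 myelin and oligodendrocyte genes 5 were lower and 2 higher, with a median of -0.17. *Opalin*, an oligodendrocyte membrane protein, fell from 9.52, 8.44 and 7.999 CPM to 6.58, 3.85, 4.71, 5.67 and 3.81 CPM (log2 fold change -0.78, standard error 0.16, adjusted p = 0.0077), while *Mbp* did not pass the test (-0.06, adjusted p = 0.55). The myelin count was 3 without PBS mouse 1 or 3. Of 20 heat shock and cold-inducible genes 4 were higher and 2 lower, and the cold-inducible *Rbm3* rose from 38.3, 38.6 and 42.4 CPM to 105, 83.5, 72.4, 76.5 and 48.9 CPM (log2 fold change 0.91, standard error 0.18, adjusted p = 0.0056). That count was 3 without any 1 of the PBS mice and 9 without LPS mouse 5. Of 81 cytosolic ribosomal protein genes 46 were higher and 0 lower, each by a small amount, with a median of 0.18. The count was 33 with median-of-ratios factors, 32, 25 and 26 without PBS mouse 1, 2 and 3. Of 90 nuclear oxidative phosphorylation genes 3 were higher and 3 lower, 6.67% beside 16.2% of all genes. This count of 6 was 0 without PBS mouse 2 or 3, 1 without PBS mouse 1 or LPS mouse 1 or 4, and 2 without LPS mouse 3. Of 13 genes of the mitochondrial genome limma called 0, with 2 at an unadjusted p under 0.05, and 1 was called with sample quality weights, after removal of the dependence on GC content and length, without PBS mouse 3, or without LPS mouse 2. Of 10 meningeal fibroblast genes 2 were higher and 1 lower (30% called). Of 12 striatal and hippocampal genes, which would mark tissue beyond the cortex, 2 were higher and 0 lower (1 called without PBS mouse 2). These 2 were 16.7% of that list, near the 16.2% of all genes.

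In absolute terms the largest rises in mean level were in *Malat1*, *Actb*, *Gfap*, *Fth1* and *Apod*. *Actb*, beta-actin, a common reference gene in qPCR, rose from 1556, 1496 and 1525 CPM to 2266, 2087, 2105, 2078 and 2171 CPM (log2 fold change 0.49, standard error 0.04, adjusted p = 7e-06), with every LPS mouse above every PBS mouse. *Apod*, a lipocalin of glia and fibroblasts, rose from 56.8, 66.4 and 72.6 CPM to 527, 319, 334, 508 and 268 CPM (log2 fold change 2.53, standard error 0.20, adjusted p = 9.9e-06). *Malat1*, a nuclear long non-coding RNA, had a log2 fold change of 0.15 (adjusted p = 0.03), and its adjusted p was 0.18 with median-of-ratios factors. Its call was also lost without PBS mouse 1 (adjusted p = 0.16), PBS mouse 2 (adjusted p = 0.065), PBS mouse 3 (adjusted p = 0.07), LPS mouse 3 (adjusted p = 0.052) or LPS mouse 4 (adjusted p = 0.054). The largest falls were in *Shank1*, *Nptxr*, *Bsn*, *Map1b* and *Atp2b2*, all genes of synapses or neuronal processes. *Shank1*, a scaffold of excitatory synapses, fell from 2091, 2078 and 2012 CPM to 1366, 1525, 1644, 1564 and 1753 CPM (log2 fold change -0.40, standard error 0.06, adjusted p = 0.0019), and *Nptxr*, a pentraxin receptor, from 1509, 1536 and 1447 to 1002, 1236, 1140.5, 1101 and 1258 CPM (log2 fold change -0.39, standard error 0.07, adjusted p = 0.0022). *Bsn*, a presynaptic scaffold, had a log2 fold change of -0.21 (adjusted p = 0.034) and an adjusted p of 0.27 after removal of the dependence on GC content and length. Its call was also lost without PBS mouse 1 (adjusted p = 0.1), PBS mouse 2 (adjusted p = 0.12), PBS mouse 3 (adjusted p = 0.11), LPS mouse 3 (adjusted p = 0.057) or LPS mouse 4 (adjusted p = 0.056).

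Among the 12 largest decreases, *Fam205a3* had the lowest value (log2 fold change -3.47, standard error 0.46, adjusted p = 0.00049), from 7.62, 6.24 and 7.43 CPM to 0, 0, 0, 1.91 and 0 CPM, but it belongs to a family of close copies between which reads may be split. *Siglech*, *Myoc*, *Slc22a8*, *Apln*, *P2ry12*, *Ighm* and *Npas4* were among them with values given above, beside *Gpr153*, an orphan receptor, from 27.8, 23.9 and 25.9 CPM to 12.8, 11.7, 13.7, 13.4 and 13.1 CPM (log2 fold change -0.97, standard error 0.08, adjusted p = 9.4e-06), and *Ccn1*, a matrix-associated early gene, from 21.6, 23.3 and 21.2 to 9.93, 9.44, 10.6, 12.3 and 15.5 CPM (log2 fold change -0.92, standard error 0.14, adjusted p = 0.00092). *Gucy2g*, a receptor guanylyl cyclase, fell (log2 fold change -0.89, standard error 0.19, adjusted p = 0.0086), and its call was lost without PBS mouse 1 (adjusted p = 0.0501). The 12 largest increases were *Lcn2*, *Saa3*, *Marco*, *Ccl5*, *Serpina3n*, *C3*, *S100a9*, *Mmp3*, *Cybb*, *Ms4a6c*, *Ifitm3* and *Msr1*, each described with its group.

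The 5 LPS mice differed in how strongly they responded, and the differences depended on the gene group. The interferon-stimulated genes had medians over the members of 1.56 to 1.98 above the PBS mean on the log2 scale. Guanylate-binding protein and immunity-related GTPase genes ran from 1.79 to 2.33. Neutrophil genes ran from 1.36 in mouse 5 and 1.43 in mouse 2 to 2.51 in mouse 4 and 2.94 in mouse 1, and acute-phase genes from 2.44 in mouse 5 to 3.89 in mouse 1. Mouse 1 was the highest of the 5 for acute-phase, neutrophil, complement, MHC class I and activated microglial genes. Mouse 2 was the lowest for interferon-stimulated, complement and adhesion genes and the highest for glucocorticoid-responsive genes, at 1.37 against 0.63 to 0.83 in the other mice. Mouse 5 had the smallest fall of immediate early genes, -0.08 against -0.57 to -0.36. The choroid plexus medians, from -1.20 to 1.89, followed neither order. These orders are descriptions over 5 mice with no test.

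**Figure D4:**
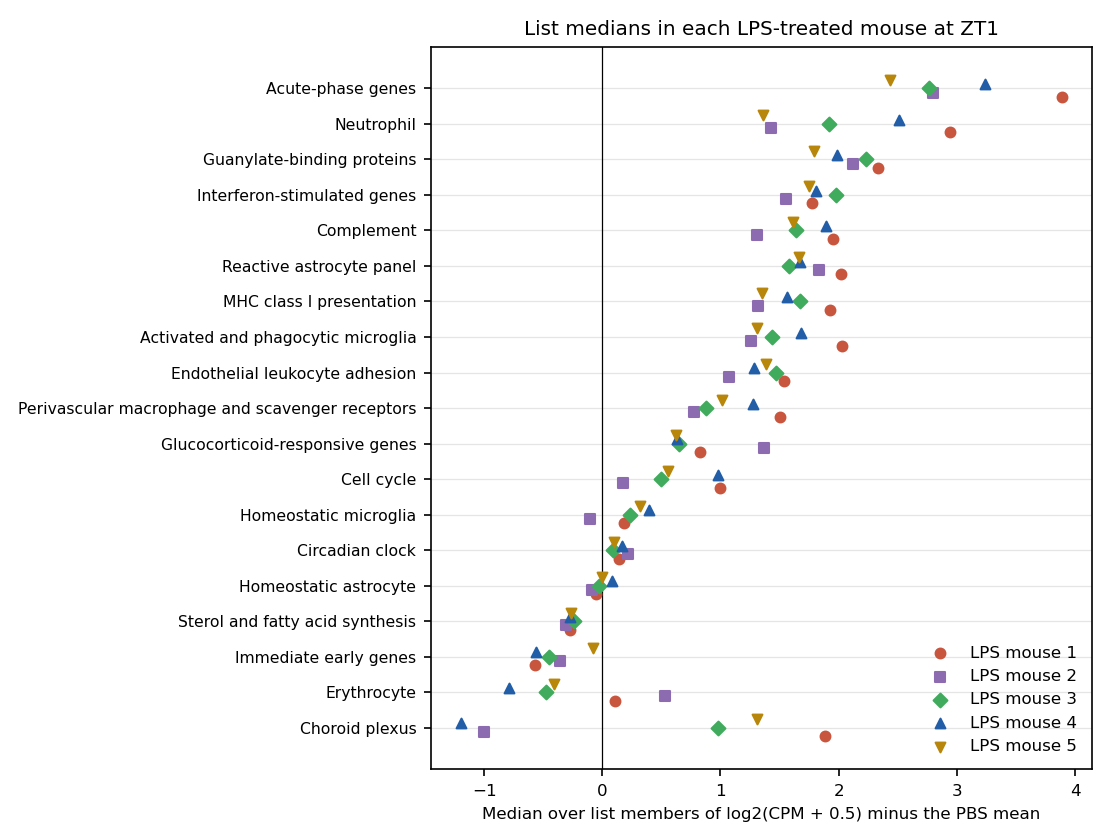
Median over the members of each list of log2(CPM + 0.5) minus the mean of the 3 PBS mice, for each LPS mouse at ZT1. Interferon-stimulated genes stay between 1.56 and 1.98, neutrophil genes spread from 1.36 to 2.94, and choroid plexus genes range from -1.20 to 1.89.

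The ZT1 response differed from that at ZT13 for 30 of 18859 genes (0.159%) by the TOD × treatment interaction over all 16 samples, with 1745 genes at an unadjusted p under 0.05. For 23 genes the log2 fold change was lower at ZT1 than at ZT13. *Cldn5* had 0.88 at ZT1 and 2.24 at ZT13 (difference 1.36, standard error 0.22, adjusted p = 0.013). *Kdr* had -0.11 and 1.27 (difference 1.39, standard error 0.23, adjusted p = 0.013), and the Notch ligand *Dll4* -0.36 and 0.83 (difference 1.19, standard error 0.19, adjusted p = 0.013). *Pecam1*, *Cdh5*, *Eng*, *Egfl7*, *Sox18*, *Cd93*, *Flt1*, *Adcy4*, *Col4a1* and *Col4a2* had higher values at ZT13 too, with differences of 0.56 to 1.08. For the other 7 genes (0.0371% of genes tested, beside 0.122% for the 23) the value was higher at ZT1. *Hif3a* had 2.27 at ZT1 and 0.77 at ZT13 (difference -1.50, standard error 0.19, adjusted p = 0.0026), and *Net1*, an exchange factor for RhoA, 0.72 and -0.00 (difference -0.73, standard error 0.10, adjusted p = 0.0062). The clock output genes *Dbp* (0.34 and -0.57), *Ciart* (0.52 and -0.62) and *Nr1d2* (0.21 and -0.20), the neuronal factor *Mef2c* (0.02 and -0.28) and the desaturase *Fads1* (-0.16 and -0.44) completed them. Of these 5, *Nr1d2* and *Fads1* were DEGs at ZT1, and the call was lost for *Nr1d2* without PBS mouse 2 (adjusted p = 0.17), PBS mouse 3 (adjusted p = 0.087), LPS mouse 1 (adjusted p = 0.069), LPS mouse 2 (adjusted p = 0.053), LPS mouse 3 (adjusted p = 0.06) or LPS mouse 4 (adjusted p = 0.051), and with median-of-ratios factors (adjusted p = 0.1), and for *Fads1* without PBS mouse 2 (adjusted p = 0.055). The inflammatory genes with the largest rises were not among the 30: the adjusted p of the difference was 0.35 for *Lcn2*, 0.67 for *Ifitm3* and 0.95 for *Ccl5*, with differences of 0.91 (standard error 0.32), 0.27 (0.17) and -0.19 (0.45). List medians at ZT1 and ZT13 were 2.80 and 4.30 for acute-phase, 2.06 and 3.41 for neutrophil and 1.56 and 2.22 for activated microglial genes. They were 1.82 and 1.80 for interferon-stimulated genes, 1.13 and 1.24 for chemokines and 0.86 and 0.57 for glucocorticoid-responsive genes. These medians were not tested, and an adjusted p over the threshold does not show equal responses. The count of 30 was 104 without ZT1 LPS mouse 1, 7 without ZT13 PBS mouse 2, 13 without ZT1 PBS mouse 1 or 2, 14 without ZT1 PBS mouse 3, 18 without ZT1 LPS mouse 3 or 5, 17 without ZT13 LPS mouse 4 and 19 without ZT13 LPS mouse 5. Called in all 16 of these fits were 7 genes, *Hif3a*, *Net1*, *Dbp*, *Col4a1*, *Col4a2*, *Akap13* and *Ccdc190*. The call of *Cldn5* was lost without ZT1 PBS mouse 1 and ZT13 PBS mouse 2, and those of *Kdr* and *Dll4* without these and without ZT1 PBS mouse 2. Of the 16 fits with 1 sample left out, *Eng* was called in 15, *Cd93*, *Sox18* and *Fads1* in 13, *Ciart* in 8, *Adcy4* in 6, *Pecam1*, *Egfl7* and *Nr1d2* in 5, *Flt1* in 4, and *Cdh5* and *Mef2c* in 3.

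**Figure D5:**
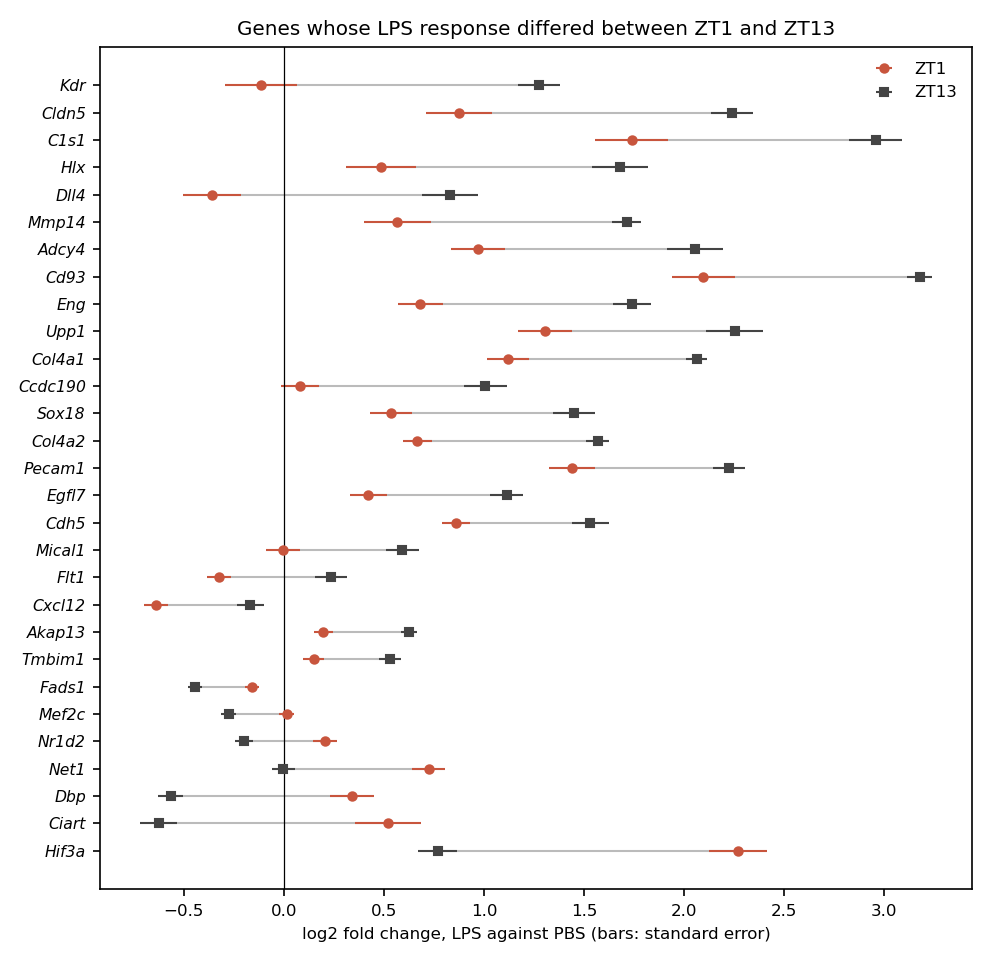
log2 fold change of LPS against PBS with its standard error at ZT1 (red circles) and ZT13 (black squares) for 29 of the 30 genes whose response differed between the times. The ZT13 value is higher for 22 of them, by most for *Kdr*, and lower for 7, of which *Hif3a* differs most.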

How the data were processed

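The authors deposited 1 gene table of the whole series in CPM, counts scaled to a library total of 1000000, made from total RNA libraries. The submitters' processing notes name DRAGEN 4.0.3-8, bcl2fastq and the build GRCm38, and the counting settings are not given in the sources used here. The table held 55774 lines, of which 287 repeated an ensembl ID with equal values and were dropped. Samples were grouped by their titles, because the treatment field contradicted them in 12 of 16 samples. Gene totals at ZT1 were 20251840 to 29112758 reads, median 22204152. Read back as multiples of 1 read, 80.7% to 82.8% of a sample's values of 20 reads or fewer were whole within 0.01 reads. No count test was therefore run, and counting error sets a floor of 3 reads per library for genes listed at 0.

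The 18859 genes that reached 1 CPM in 3 or more of the 16 samples were fitted by limma 3.58.1 (R 4.3.3) on log2(CPM + 0.5), two-sided and with a prior variance that follows intensity, on the 8 ZT1 samples, and for the difference from ZT13 on all 16. Calls were made at a Benjamini-Hochberg adjusted p under 0.05. A gene under 1 CPM in the PBS mice passed the filter through other groups, so its direction was largely fixed. Summaries used Python 3.11.15, pandas 2.3.3 and numpy 2.4.6, and the fit was tested on simulated data. The 39 gene lists (with ribosomal, oxidative phosphorylation and mitochondrial genes read from symbols) and the members were chosen with earlier results of these data known, and are described by counts and medians without a set test. Named genes were list members, up to 4 called with the largest change and those with a defining role, the 12 largest rises and falls among DEGs without overlap and at least 5 CPM in the higher group, the 5 largest rises and falls in CPM, genes with a different response at ZT13, and *Gfap*. List members named outside that rule, such as those that make up a small count or did not pass the test, were chosen after their values were seen. Other pseudocounts, filters, scalings, weights, a replicate block and leaving out each sample were tried, and the removal of a trend on GC content and length was chosen after seeing the data. Promoter windows are RefSeq, GRCm38.p6, and covered 12258 of the tested genes. A few genes of the lists and of the rule for named genes are not reported here.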

Additional observations from a re-analysis of the deposited data

Results flagged for a closer look

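In 10 of 210 named genes 1 of the 5 LPS mice at ZT1 stood apart, its gap to the nearest mouse over the whole range exceeding Dixon's critical value of 0.71, which chance does in about 1 in 20 groups. The number of genes flagged is about what that rate gives. Mouse 1 was the highest for *Cd74* (0.758), *Cxcl12* (0.73) and *Dcn* (0.712) and the lowest for *Cxcl14* (0.777), and for *Cxcl12* the whole range was small (24.2 to 27.8 CPM). Mouse 2 was below the others for *Kdr* (0.715), *Mcm3* (0.758) and *Tmem119* (0.765) and above them for *Dll4* (0.75). Mouse 5 was the low one for *Bcl3* (0.787), and mouse 4 the only one above 0 for *Fam205a3* (1.0).

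The response to LPS differed between the times, by the interaction in limma over 16 samples, for 30 genes, of which 29 are given here as the log2 fold change at ZT13 minus that at ZT1. It was 1.39 for *Kdr*, 1.36 for *Cldn5*, 1.19 for *Dll4*, 1.08 for *Adcy4* and *Cd93*, 1.06 for *Eng*, 0.94 for *Col4a1*, 0.91 for *Sox18*, 0.90 for *Col4a2*, 0.78 for *Pecam1*, 0.69 for *Egfl7*, 0.67 for *Cdh5* and 0.56 for *Flt1*. It was also 1.22 for the complement protease *C1s1*, 1.19 for *Hlx*, 1.14 for the metalloproteinase *Mmp14*, 0.94 for *Upp1*, 0.93 for *Ccdc190*, 0.60 for *Mical1*, 0.47 for *Cxcl12*, 0.43 for *Akap13* and 0.38 for *Tmbim1*. The log2 fold change was higher at ZT1, so that the difference is negative, for *Hif3a* (-1.50), *Ciart* (-1.14), *Dbp* (-0.91), *Net1* (-0.73), *Nr1d2* (-0.40), *Mef2c* (-0.29) and *Fads1* (-0.28).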

How the results depend on the processing

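Of 169 DEGs named at ZT1, 127 kept the call in every alternative tried and 0 of 210 named genes reversed direction while called. The 3061 DEGs numbered 1605 with no filter on low values and 548 with a further limit of 1 on the absolute log2 fold change, and ranged from 1767 to 3758 with 1 sample left out. The other alternatives gave 2168 (no intensity trend) to 4097 (sample quality weights). The 30 genes with a different response at ZT13 numbered 124 with sample quality weights and 11 with no intensity trend, and ranged from 7 to 104 with 1 sample left out. Named DEGs lost 4 calls with median-of-ratios factors, 13 with no intensity trend and 38 with no filter, under which more genes are tested. With the single fit of all 16 samples *Arc* (adjusted p = 0.054), *Dusp1* (0.059) and *Gzma* (0.094) lost theirs. *Tnf* was called with a pseudocount of 0.1, at a log2 fold change of 1.86, and with the single fit, sample quality weights or no intensity trend. The cause of these changes was not tested. With the replicate number as a block, 2637 genes were DEGs, 3 differed from ZT13 and 8 named DEGs lost the call, but the numbers do not pair the samples: the deviations of PBS and LPS mice of 1 number correlated at -0.11, -0.17 and -0.01 and no mouse correlated best with its own number. With 3 PBS mice and genes near 1 CPM resting on few reads, depth and sample number limit the precision of small changes and of low genes.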
